A study of Canis lupus familiaris with 21 samples.

Results

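LOC119877774 and LOC119877775 are 2 dog loci, known here by their numbered gene symbols alone, that took the largest share of gene reads in RNA from extracellular vesicles (EVs) of plasma. They are 2 of the 34981 genes in each deposited table, and both were measured in all 21 libraries. They were chosen by their share of gene reads in the EV libraries, so their EV level and its distance from cortex are given below as descriptions, without a test. The sources used here give no product, position or length for either locus. A ratio between them is therefore a ratio of reads and not of molecules.

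EVs are membrane-bound particles that cells release into body fluids, and the RNA they carry comes from many cell types and includes many fragments of longer transcripts. A library made from total RNA after ribosomal depletion can record transcripts with or without a poly(A) tail, whereas a library made from polyadenylated RNA records mainly those with one. When a few transcripts take much of a library, the reads left for all others shrink, and levels expressed per total read depend on that share.

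The animals were companion dogs in 3 groups: young dogs, old dogs, and dogs with canine cognitive dysfunction (CCD), a syndrome of ageing in which learning, memory and orientation worsen. Prefrontal cortex gave 9 libraries from polyadenylated RNA, 3 per group, and plasma EVs gave 12 libraries from total RNA, 4 per group. Tissue and type of library therefore cannot be told apart. Each library is named by its group and label, and the 9 cortex numbers recur among the EV libraries in the same groups; the labels give no batch and leave unsaid whether every number stands for its own dog. The p-values therefore measure the spread between libraries. Cortex libraries held 14.9 to 31.4 M reads, of which 92.1 to 95.8% lay on genes, and EV libraries held 27.5 to 45.0 M, of which 15.8 to 25.1% lay on genes and the rest on transposable element families. The 9 cortex markers summed to 0.853 to 3.55% of gene reads in cortex and to 0.0147 to 0.0313% in EVs. In EVs the 6 measured of 8 blood and platelet markers summed to 0.00789 to 0.0152% and the 5 vesicle markers to 0.00427 to 0.0151%, none of them at 0 in any EV library. In cortex the blood and platelet markers summed to less, 0.000843 to 0.00200%, but the vesicle markers to more, 0.0487 to 0.0964%. The 2 liver markers summed to 0.00287 to 0.00679% in EVs and to 0.00845 to 0.0792% in cortex.

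In EVs the loci together held 6.17 to 21.2% of all gene reads, with a mean of 14.6 ± 4.16% (SD, n = 12). Both stood at ranks 1 and 2 of all genes in 9 of 12 libraries; LOC119877774 was never below rank 2 and LOC119877775 never below rank 5. The gene just outside the pair was ADRA1B, which encodes the alpha-1B adrenergic receptor, with a mean of 3.37% of gene reads against 5.64% for LOC119877775 and 8.96% for LOC119877774. The precision of these shares was not limited by depth. The 95% Wilson intervals of the share of gene reads spanned at most 0.0619 percentage points in any library and cover counting error only.

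LOC119877774 had normalised counts of 187687, 466100, 860450 and 1210102 in young EV_270, EV_353, EV_377 and EV_502. In old EV_250, EV_253, EV_264 and EV_519 it had 510818, 269826, 731616 and 783270. In CCD EV_163, EV_354, EV_358 and EV_523 it had 578663, 533765, 798073 and 1180388. The highest level lay 6.45-fold above the lowest, the highest and the lowest library were both young, and all 3 groups overlapped.

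LOC119877775 had 156774, 211790, 551778 and 222245 normalised counts in the same young libraries. In the old libraries it had 630953, 380768, 550574 and 533197, and in the CCD libraries 115656, 583657, 330612 and 703278. Its span was 6.08-fold and all 3 groups overlapped, but here 3 of the 4 young libraries lay below every old library, and the lowest and the highest library of all were both CCD.

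As a share of gene reads, both loci together made up 12.3 ± 5.29% in young (SD, n = 4), 15.3 ± 2.85% in old (n = 4) and 16.2 ± 4.01% in CCD EVs (n = 4). No pair of groups differed by more than the spread between libraries. The smallest exact two-sided permutation p was 0.257, for CCD against young, with an adjusted p of 0.707 over 9 library tests in EVs. CCD EV_523 was the highest of all at 21.2% and young EV_270 the lowest at 6.17%.

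**Figure D1:**
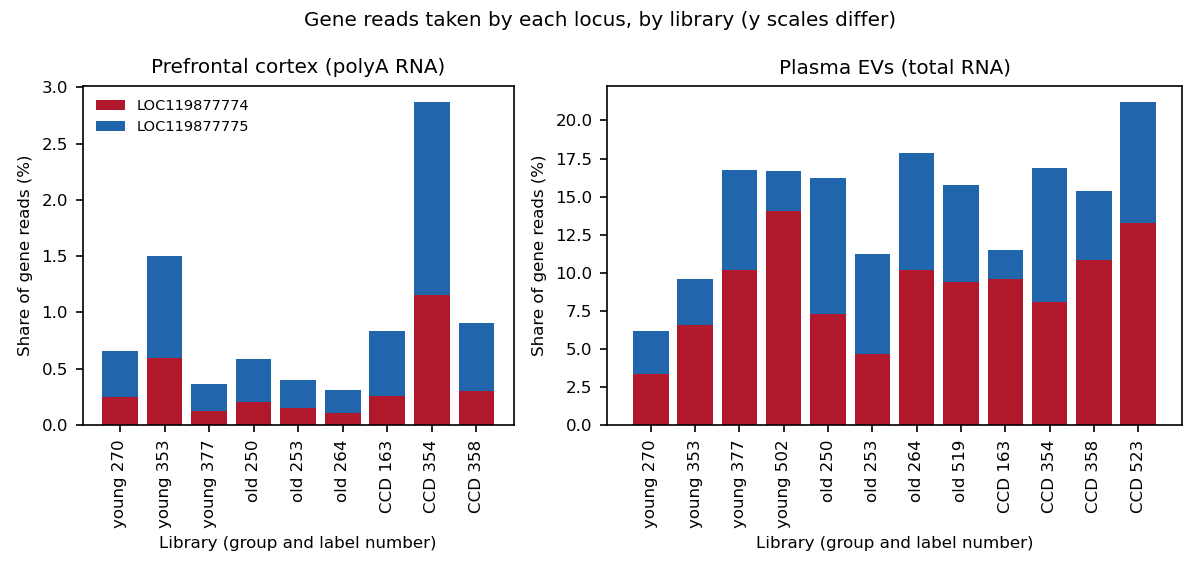
Share of gene reads (%) on LOC119877774 (red) and LOC119877775 (blue), stacked, in each cortex library (left) and EV library (right), by group and label number; the y scales differ. The EV bars reach 6.17 to 21.2% and the cortex bars 0.307 to 2.87%, with CCD cortex_354 far above the other cortex libraries.

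In prefrontal cortex the same loci were also among the abundant genes, but at a much lower share. Together they held 0.307 to 2.87% of gene reads, and the lowest EV library stood 2.15-fold above the highest cortex library. LOC119877775 ranked 4 to 17 among cortex genes and LOC119877774 ranked 5 to 70, behind ND4 of mitochondrial complex I, the top gene in all 9 cortex libraries.

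LOC119877774 had 53501, 128506 and 27165 normalised counts in young cortex_270, cortex_353 and cortex_377. In old cortex_250, cortex_253 and cortex_264 it had 44104, 33443 and 23350, and in CCD cortex_163, cortex_354 and cortex_358 it had 54160, 248685 and 64911. Every CCD library lay above every old library, while the young libraries overlapped both groups. CCD and old did not overlap, in either direction, for 34.5% of all cortex genes tested.

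LOC119877775 showed the same order of libraries. It had 89489, 198066 and 52732 normalised counts in the young, 83276, 54123 and 43561 in the old, and 122322, 368092 and 131899 in the CCD libraries named above. CCD cortex_354 was the highest for both loci, followed by young cortex_353, and old cortex_264 was the lowest for both.

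Set side by side by label number, the share of gene reads was higher in EVs than in cortex for both loci in 9 of 9 numbers. For LOC119877774 the EV share was 6.98 to 95.2 times the cortex share (median 36.1), and for LOC119877775 it was 3.28 to 38.4 times (median 7.41). The choice of denominator changed this picture, because most EV reads lay on transposable element families. As a share of all reads, LOC119877774 was 1.40 to 20.6 times higher in EVs (median 6.96). LOC119877775 was then higher in EVs in only 7 of 9 numbers, at 0.616 to 8.23 times the cortex share (median 1.63). The exceptions were young EV_353, with 0.599% of all reads in EVs and 0.861% in cortex, and CCD EV_163, with 0.327% in EVs and 0.532% in cortex.

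**Figure D2:**
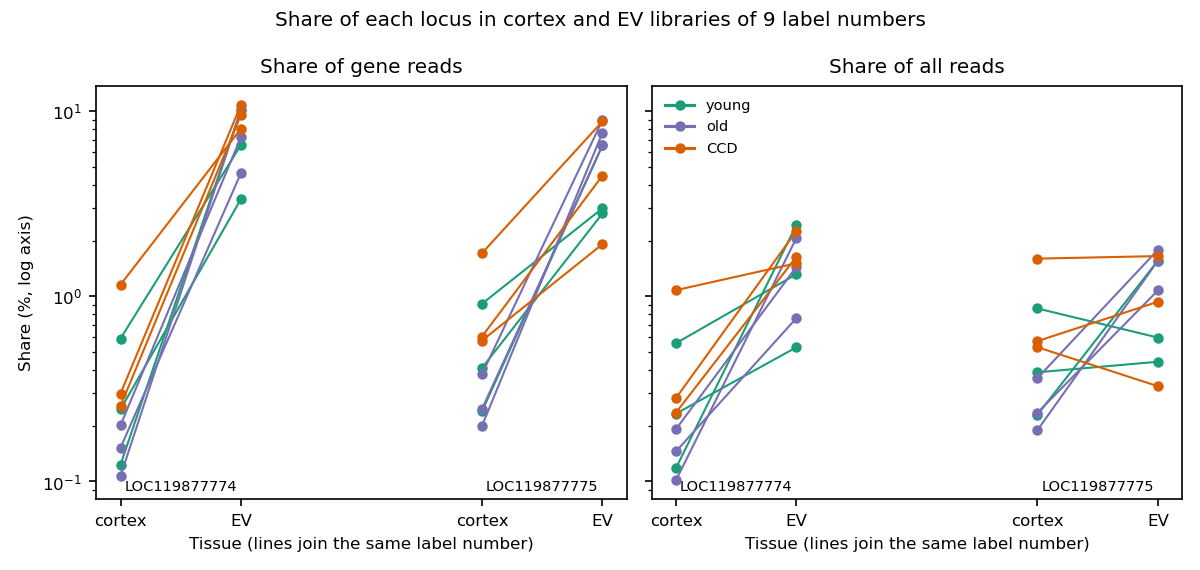
Share of each locus (%, log axis) in the cortex and EV library of each of 9 label numbers, joined by lines coloured by group, as a share of gene reads (left) and of all reads (right). All lines rise on the left; on the right 2 lines of LOC119877775 fall, those that end at young EV_353 and CCD EV_163.

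No relation between the level in cortex and that in EVs passed a test across the 9 numbers. Pearson's r was -0.09 for LOC119877774 (exact permutation p = 0.826; Spearman's rho -0.20, p = 0.613) and -0.19 for LOC119877775 (exact permutation p = 0.629; rho -0.23, p = 0.552). Each had an adjusted p of 0.854 over 7 relations for r and 0.716 for rho. Without cortex_353 and cortex_354, the libraries farthest from the median, r was -0.24 and -0.63.

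The balance between the loci differed in kind between the tissues. In cortex LOC119877775 had more reads than LOC119877774 in 9 of 9 libraries, and the ratio of LOC119877774 to LOC119877775 stayed between 0.443 and 0.676. In EVs LOC119877774 had more reads in 9 of 12 libraries, and the ratio ran from 0.709 in old EV_253 to 5.44 in young EV_502. On the log2 scale the ratio had an SD of 0.20 over the 9 cortex libraries and 0.93 over the 12 EV libraries. In the 9 numbers with both libraries the EV ratio was 1.15 to 11.3 times the cortex ratio.

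Across cortex libraries the levels of the loci moved almost as one. Pearson's r of the log2 levels was 0.99 and Spearman's rho 1 over 9 libraries, with exact permutation p of 2.76e-06 and 5.51e-06, the smallest that 9 libraries allow for each (adjusted p 1.93e-05 and 3.86e-05 over 7 relations). Without cortex_353 and cortex_354 r was 0.97. In EVs r was 0.38 (permutation p = 0.226, adjusted p = 0.396) and rho 0.30 (p = 0.345, adjusted p = 0.604) over 12 libraries, and r was 0.18 without EV_253 and EV_270. EV_502 and EV_163 stood farthest from equal levels, with LOC119877774 at 5.44 and 5.003 times LOC119877775.

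**Figure D3:**
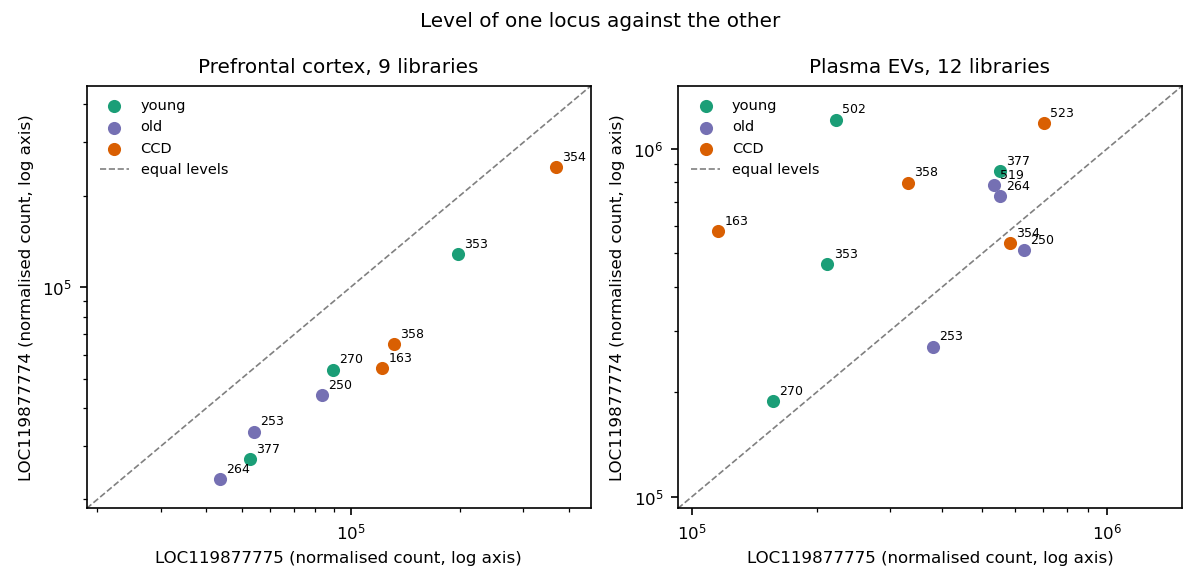
Normalised count of LOC119877774 (y) against LOC119877775 (x) on log axes in 9 cortex (left) and 12 EV libraries (right), coloured by group, with the line of equal levels. The cortex points lie on a narrow band below the line; the EV points scatter on both sides, with young EV_502 and CCD EV_163 farthest above it.

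By group, the EV ratio ran from 1.20 to 5.44 in young, from 0.709 to 1.47 in old and from 0.915 to 5.003 in CCD libraries. Its mean log2 was 1.12 ± 0.95 in young, 0.04 ± 0.52 in old and 1.05 ± 1.02 in CCD (SD, n = 4 each). Old lay below both other groups on average, but the groups overlapped. The exact two-sided permutation p was 0.114 for old against young and for CCD against old, each with an adjusted p of 0.514 over 9 tests. In cortex the mean log2 ratio was -0.77 ± 0.17 in young, -0.84 ± 0.12 in old and -0.92 ± 0.32 in CCD (SD, n = 3 each), and the smallest exact permutation p was 0.5 (adjusted p = 0.643).

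The comparison of CCD with old cortex gave the only separation of groups in the levels of these loci, their shares or the ratio between them. In that comparison the groups did not overlap for 34.5% of all genes tested. The loci moved almost as one in cortex, so they are not separate instances. LOC119877774 had a mean of 122585 ± 109338 normalised counts in CCD and 33632 ± 10379 in old (SD, n = 3 each). The log2 fold change was 1.56 ± 0.63 (SE). LOC119877775 had 207438 ± 139213 in CCD and 60320 ± 20570 in old, and the log2 fold change was 1.64 ± 0.54. Neither passed limma's test, a linear model with moderated spread and Benjamini-Hochberg adjustment over all 19010 genes (adjusted p = 0.312 and 0.290). Limma called 0% of genes in this comparison: 0 of 19010, with 2815 at an unadjusted p under 0.05, against 0 called by edgeR (2472 unadjusted) and 162 by DESeq2 (2980 unadjusted).

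DESeq2 and a limma fit without the young libraries did call LOC119877775 higher in CCD, with adjusted p of 0.0389 and 0.0396. Over 19 alternatives its adjusted p ran from 0.0389 to 0.709. That smaller fit called 1807 genes in all. Without CCD cortex_354 the log2 fold changes were 0.87 and 1.13, and with quantile normalisation they were 1.16 and 0.88. Groups that do not overlap were common in this comparison, at 34.5% of genes. CCD cortex libraries were also the shallowest, at 14.9 to 18.9 M reads against 24.2 to 27.5 M in old, and the part of depth in this difference was not tested. In bulk tissue, fewer cells of a type and less RNA per cell cannot be told apart.

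Both loci together held 1.54 ± 1.15% of gene reads in CCD, 0.429 ± 0.140% in old and 0.841 ± 0.593% in young cortex (SD, n = 3 each). The exact two-sided permutation p for CCD against old was 0.1, the smallest that 3 against 3 allows (adjusted p = 0.45 over 9 tests). Without CCD cortex_354 the difference of CCD from old was 0.440 percentage points in place of 1.11, and that of CCD from young 0.0284 in place of 0.695. Across the 9 cortex libraries the share fell as the read total rose, a relation looked at after the values were seen. CCD libraries held at most 18.9 M reads, against at least 22.3 M in young and 24.2 M in old. Group and depth therefore cannot be told apart in this relation. Pearson's r was -0.73 (exact permutation p = 0.0178, adjusted p = 0.0415) and Spearman's rho -0.80 (p = 0.0138, adjusted p = 0.0484). Without CCD cortex_354 and young cortex_377 r was -0.46 and rho -0.64 (exact permutation p = 0.299 and 0.139), of the same direction but no longer past the test.

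Old against young cortex gave log2 fold changes of -0.81 ± 0.63 for LOC119877774 and -0.75 ± 0.54 for LOC119877775 (SE, n = 3 each; limma adjusted p = 0.8999 and 0.881). CCD against young gave 0.74 ± 0.63 and 0.89 ± 0.54 (limma adjusted p = 0.592 and 0.471). With 1 library left out, old against young ran from -1.35 without young cortex_377 to -0.23 without young cortex_353 for LOC119877774, and from -1.20 to -0.24 for LOC119877775. CCD against young ran from 0.05 without CCD cortex_354 to 1.33 without young cortex_353 for LOC119877774, and from 0.38 to 1.40 for LOC119877775. In both comparisons the groups overlapped for both loci, whereas 12.2% and 13.5% of genes did not overlap, and limma called 0 genes (1282 and 2447 unadjusted). Against CCD and young alike the old libraries had the lower mean, but the young group spanned 27165 to 128506 normalised counts for LOC119877774 by itself.

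In EVs no comparison of groups passed the test for either locus. For LOC119877774 the log2 fold change was 0.47 for CCD against old, -0.05 for old against young and 0.42 for CCD against young, with limma adjusted p of 0.972, 0.9999 and 0.9999. For LOC119877775 it was -0.54, 1.03 and 0.49, with limma adjusted p of 0.953, 0.9999 and 0.9999. The groups overlapped in all 6 cases, where 5.93%, 0.917% and 2.71% of genes did not overlap. Limma called 0 of 31728 genes in each comparison (1896, 394 and 904 unadjusted); edgeR called 0 (1032, 591 and 521 unadjusted) and DESeq2 2, 0 and 1.

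The EV standard errors came mostly from the model and not from these loci. They were 3.39 for LOC119877774 and 2.45 for LOC119877775, because limma's prior spread follows a trend over mean level that rises steeply at the top of the EV table. The prior SD was 7.95 and 5.69 there, while the loci's own residual SDs were 0.85 and 0.83 and that of the median gene 0.53. Without the trend, an alternative chosen after the values were seen, the standard errors were 0.55 and 0.54. The widest EV difference, LOC119877775 in old against young, then had a log2 fold change of 1.03 ± 0.54 with an unadjusted limma p of 0.0803 and an adjusted p of 1; over 22 alternatives its adjusted p was 0.928 to 1.

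**Figure D4:**
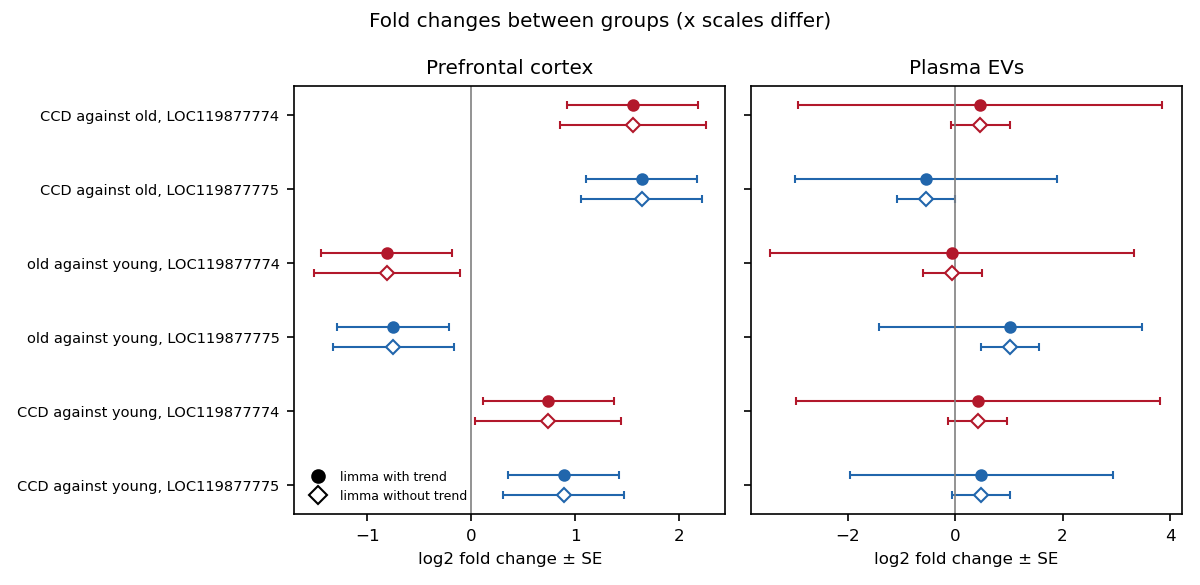
Log2 fold change ± SE of each locus in 3 comparisons of groups in cortex (left) and EVs (right), from limma with a trended prior (filled circles) and without the trend (open diamonds); the x scales differ. CCD against old cortex lies above 0 for both loci at 1.56 and 1.64, and the EV error bars shrink from 3.39 and 2.45 to 0.55 and 0.54 without the trend.

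The other abundant EV genes were set against each locus. Of the 10 genes with the next highest mean share, 7 had Pearson's r above 0.85 with LOC119877774 across the 12 EV libraries. With LOC119877775, 0 of the 10 did. The 7 genes picked by that cut had r of 0.90 to 0.95 with LOC119877774 and 0.20 to 0.30 with LOC119877775. They were ADRA1B, HDGF (a heparin-binding growth factor), HOXB7 (a homeobox transcription factor), ADCK1 (a protein of the ADCK family of predicted kinases), MLIP (a lamin A/C-interacting protein of muscle) and the long non-coding RNA genes LOC106558610 and LOC102151911. On levels scaled to gene reads their r with LOC119877774 was still 0.84 to 0.92, with 6 of the 7 above 0.85. The loci had r of 0.38 with each other, so a lower r of the 7 with LOC119877775 partly follows from the cut. These values describe 12 libraries that share 1 scale and are given without a test.

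The 7 genes held 4.65 to 19.9% of EV gene reads between them and at most 0.0167% of cortex gene reads. HOXB7, for example, had a mean of 126723 normalised counts in EVs and 10.02 in cortex. ADRA1B had 254662 in EVs and 151 in cortex. In cortex r to LOC119877774 ranged from -0.74 to 0.61, but the 7 genes were chosen for their EV values and some were near 0 in cortex, so this is no comparison of the tissues.

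The ratio of LOC119877774 to ADRA1B spanned 1.84-fold, for genes whose levels spanned more than 6-fold. It was 2.48, 2.54, 2.56 and 2.39 in young EV_270, EV_353, EV_377 and EV_502. In CCD EV_163, EV_354, EV_358 and EV_523 it was 2.44, 2.47, 2.37 and 2.34, and in old EV_250, EV_253, EV_264 and EV_519 it was 2.58, 2.68, 4.06 and 4.30. Every old library thus lay above every other, by little in EV_250 and EV_253 and by more in EV_264 and EV_519. This held for 1 of the 7 genes with LOC119877774 and for 6 of 7 with LOC119877775. The 7 genes were chosen for their likeness to LOC119877774 and so resemble one another, which means that the 6 are not separate instances. In EVs the ratio of ADRA1B to HDGF, for example, spanned only 1.24-fold. How many of all EV genes would show the same order was not computed. The order was noticed after the values were seen and was not tested. The ratio of LOC119877775 to ADRA1B spanned 8.60-fold.

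**Figure D5:**
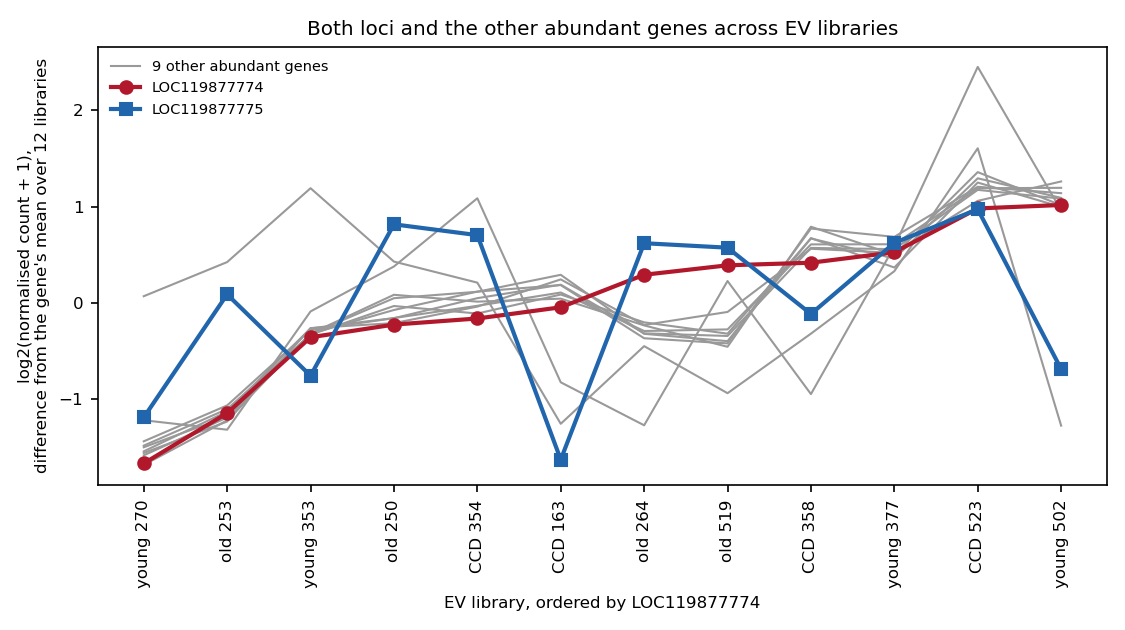
Log2(normalised count + 1) of LOC119877774 (red), LOC119877775 (blue) and 9 of the 10 next most abundant EV genes (grey; NMNAT2 is left out), each as the difference from its own mean over 12 EV libraries, ordered by LOC119877774. Most grey lines run along the red line, while the blue line departs from it at CCD EV_163 and young EV_502.

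The remaining 3 of the 10 genes did not follow LOC119877774 so closely. RN7SL1, the RNA of the signal recognition particle, had r of -0.16 with LOC119877774 and 0.40 with LOC119877775, and the long non-coding RNA gene LOC111093856 had 0.62 and 0.48. In cortex RN7SL1 had r of 0.89 and 0.91 with the loci. Of the leading cortex genes, the mitochondrially encoded CYTB had 0.87 and 0.90, ND4 0.81 and 0.84, and ND5 0.73 and 0.73. MBP had 0.57 and 0.58, and NRGN 0.16 and 0.10. NMNAT2, an enzyme of NAD synthesis in axons, was abundant in young EV_377 alone, with 544687 normalised counts there and 166 to 475 elsewhere.

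Among all 14641 other EV genes with a mean of at least 100 normalised counts, 213 had r above 0.9 with LOC119877774 and 1 with LOC119877775. When levels were scaled to gene reads the counts were 28 and 0. For LOC119877774, 241 genes had r under -0.9, and 689 when scaled to gene reads, where the median r over all genes was -0.66. With 1 library left out the count ran from 120 without EV_270 to 474 without EV_519 for LOC119877774, where that of LOC119877775 stayed at 1. The most alike to LOC119877774 were GLRX5, a glutaredoxin of mitochondrial iron-sulphur clusters (r = 0.98), KDM6B, a histone demethylase (0.98), EPC1, a chromatin protein (0.98), LTC4S, which makes leukotriene C4 (0.98), and LOC119870268 (0.97). The least alike were RGSL1 (-0.97), LOC102155239 (-0.96) and LOC484897 (-0.95). These names come from the normalised counts as deposited, without scaling to gene reads.

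On levels scaled to gene reads, 0 EV genes had r above 0.9 with LOC119877775. On the normalised counts as deposited the single one was NAPRT, an enzyme of NAD synthesis from nicotinic acid, at r = 0.94. Behind it came EFNA3, an ephrin ligand (0.83), LOC119877738 (0.81), PUDP (0.76) and SCARF2 (0.76). LOC119877774 itself stood at position 897 in this order. The lowest were CA12, a carbonic anhydrase (-0.86), LOC111092557 (-0.75) and CYP20A1 (-0.75).

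LOC119877738 was the one gene among the 5 most alike to LOC119877775 in both tissues. In cortex, where the same order was drawn up after the EV values were seen, it was the gene most alike to either locus, at r = 0.997 to LOC119877775 and 0.99 to LOC119877774, with a rho of 1 for both over 9 libraries. Its level was 8.22 to 9.62% of that of LOC119877775 in cortex and 2.18 to 6.36% in EVs, in normalised counts. In EVs its r to LOC119877774 was 0.05. After it and the other locus, the cortex genes most alike to LOC119877774 were RNPEP, an aminopeptidase (0.95), LOC111093535 (0.95) and EYA2, a transcriptional cofactor and phosphatase (0.95). For LOC119877775 they were LOC111093535 (0.98), TEPSIN (0.96) and ACAP1 (0.95). The lowest r to LOC119877774 in cortex was -0.98, for PRKG2, a cGMP-dependent protein kinase, and that to LOC119877775 was -0.98, for CRACDL. Such values were not rare over 9 libraries. Of 13476 other cortex genes, 21 had r above 0.9 with LOC119877774 and 97 under -0.9. With LOC119877775 the counts were 38 and 205.

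Because the loci took so much of the EV gene reads, the share of every other gene within gene reads would rise 1.07-fold to 1.27-fold if they were set aside, depending on the library. In cortex the same factor was 1.003 to 1.03. On the deposited scale, which counts transposable element reads as well, setting both loci aside and rescaling each library to the rest moved no gene's log2 fold change between EV groups by more than 0.04. Limma then called 0 of 31800 other genes in each of the 3 EV comparisons (1903, 406 and 864 unadjusted for CCD against old, old against young and CCD against young).

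Across the 12 EV libraries the share of gene reads on the loci had Pearson's r of 0.76 and Spearman's rho of 0.64 with the share of all reads that lay on genes. Reads of the loci count in both shares, so a positive r is partly built in, and the values are given without a test. Without EV_270 and EV_523 r was 0.56 and rho 0.38. For the read total in EVs no relation passed the test, at r = -0.06 (permutation p = 0.854) and rho = 0.03 (p = 0.921), with adjusted p of 0.854 and 0.921.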

How the data were processed

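Prefrontal cortex RNA (polyadenylated) and plasma EV RNA (total RNA after ribosomal depletion) of dogs were sequenced as 150 bp pairs, per the labels' protocols. Reads were handled with STAR and DESeq2, per the submitters' processing notes; versions, genome build, annotation, counting tool and the treatment of reads that match several places were not given in the sources used here. Each tissue has a table, deposited by the authors, of signal values, called normalized counts, for 34981 genes and 822 transposable element families, with an equal total in every library. Each value was a whole number times a library factor (100% of values within 0.01), which gave the reads per library; for young cortex_353 the factor is near 1 and this test says little. The tables were normalised separately, so levels were tested within a tissue, and tissues are compared by shares within a library. RefSeq symbols of the assembly UU_Cfam_GSD_1.0 matched 95.4% of genes and 0 of the 2 loci, so the neighbours and pathway of the loci were not used.

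Genes with a mean of at least 10 normalised counts were tested in R 4.3.3 with limma 3.58.1 on log2(normalised count + 1), over the 3 groups of a tissue with a trended prior, adjusted over all genes with a threshold of 0.05. Fold changes are on that scale. The whole reads went through edgeR 4.0.16 and DESeq2 1.42.0 as alternatives. Others were another pseudocount and filter, other scalings, a fit of the compared groups alone and leaving out each library; limma without the trend, scaling to reads outside both loci and the cortex relation to depth were chosen after seeing the data. Shares and ratios were compared by exact two-sided permutation tests, and relations by permutation (100000 draws for 12 libraries, all orders for 9). The limma script was tested on simulated data with the same dispersion for every gene. That simulation does not cover the steep trend of spread at the top of the EV table. The genes named are the loci, the 10 next most abundant genes in EVs and the leading ones in cortex. Among genes with a mean of at least 100, the 5 of highest and 3 of lowest r to each locus in EVs are also named. In cortex the 5 of highest and the 1 of lowest r are named. The members and lists were chosen with earlier results of these data known.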

Additional observations from a re-analysis of the deposited data

Results flagged for a closer look

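Young EV_377 stood apart from the other 3 young EV libraries in LOC119877775. Its normalised count was 551778 against 156774 to 222245, its share of gene reads 6.55% against 2.59 to 2.99%, and its share of all reads 1.56% against 0.444 to 0.629%. In each case the gap to the nearest library took up more of the group's range than 95% of groups of 4 would show. These are 3 views of 1 locus in 1 library, out of 27 group and measure pairs looked at, and chance flags about 1 in 20. The same library held 544687 normalised counts of NMNAT2, which is 6.46% of its gene reads; without NMNAT2 the share of LOC119877775 there was 6.997%.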

How the results depend on the processing

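Over the alternatives run, 511 values stayed the same, meaning direction and side of the threshold, or an unchanged count of called genes. Another 24 turned in direction and 12 counts of called genes moved. Only in the alternative did 2 values pass the threshold, and 2 passed it only in the main setting. The 511 include fits that left out a library outside the comparison, where the fold change cannot move. They also include permutation tests of cortex groups, which have too few libraries to pass the threshold. Those of EV groups could pass only if several comparisons reached their smallest possible p together. The EV fits with a trended prior had wide standard errors and left little room to pass. For all of these, staying on the same side of the threshold says little. No paired analysis was possible because the groups compared within a tissue share no label numbers. In CCD against old cortex, DESeq2 gave a log2 fold change of 1.91 for LOC119877775, called, with 162 genes called in all, and the fit of the compared groups gave 1.64, called, with 1807 genes. DESeq2 called 216 genes in old against young cortex, 208 in CCD against young cortex, and 2 and 1 in CCD against old and CCD against young EVs. The EV change of LOC119877775 in CCD against old turned to 0.0462 with edgeR and 0.0419 with DESeq2. Scaled to gene reads, that of LOC119877774 in old against young turned to 0.00470, and with quantile normalisation both loci turned in CCD against young, to -0.18 and -0.11. Quantile normalisation also moved the median EV gene from -0.27 to -0.01 in CCD against old. In EV shares, LOC119877775 alone was lower in CCD than in old (differences of -1.60 points of gene reads and -0.256 of all reads) and LOC119877774 alone lower in old than in young (-0.691 and -0.303). The relation of share to read total turned to r = 0.26 in EVs without its 2 farthest libraries, and weakened to -0.46 in cortex; with the share of reads on genes r was 0.56. The cause of these changes was not tested.

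With 1 library left out, the genes called by limma ran from 0 to 743 in CCD against old cortex (743 without young cortex_377), 0 to 41 in old against young cortex (41 without young cortex_377, 2 without young cortex_270), 0 to 1 in CCD against young cortex (1 without CCD cortex_358), and 0 to 1 in CCD against old and in old against young EVs (1 without old EV_253). The EV change of LOC119877774 ran from -0.57 to 0.33 in old against young and from -0.10 to 0.80 in CCD against young. The EV difference in share of gene reads ran from -0.678 to 2.56 points in CCD against old, that in share of all reads from -0.333 to 0.789 in CCD against old and from -0.216 to 0.810 in old against young, and the EV difference in log2 ratio from -0.49 to 0.37 in CCD against young. In cortex the log2 ratio difference ran from -0.26 to 0.0427 in CCD against old and from -0.15 to 0.0125 in old against young. Counting error was small for both loci; whether depth has a part in the cortex differences was not tested.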
